A study of Mus musculus with 6 samples.

Results

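CD8-negative T cells are described here in single-cell RNA sequencing data from 6 mouse rhabdoid tumors. The members were chosen by the UMIs (unique molecular identifiers, each standing for 1 captured transcript) of 8 genes in each cell. A member had at least 2 UMIs of the CD3 genes *Cd3d*, *Cd3e* and *Cd3g* together, no UMI of *Cd8a* or *Cd8b1*, and fewer than 20 UMIs per 10000 of the complement genes *C1qa*, *C1qb* and *C1qc*, which mark macrophages. After removal of cells below 200 genes or above 25% mitochondrial UMIs, 22163 cells were kept, and 1300 of them were members.

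The tumors arose in mice in which both *Smarcb1* alleles, whose product belongs to the SWI/SNF chromatin remodelers, can be deleted by a tamoxifen-inducible Cre recombinase, and tamoxifen (50 mg/kg) was given to all litters in utero at day 6.5 post coitum. MYC spinal 1, 2 and 3 were spinal tumors of Rosa26-cre mice aged 19, 26 and 17 weeks. The 3 extracranial rhabdoid tumors (eRT) came from a gland of a Rosa26-cre mouse (eRT 1, 17 weeks), the jaw of a Sox2-cre mouse (eRT 2, 29 weeks) and the shoulder of a Sox2-cre mouse (eRT 3, 22 weeks). Subtype, site and Cre strain are therefore partly confounded. The Rosa26 promoter drives Cre in most cell types and the Sox2 promoter in early embryonic cells, and whether the T cells themselves carried the deletion was not tested. Tumors were dissociated with Accutase, freed of red blood cells by lysis and sorted for 7-AAD-negative, viable cells. No untreated or tumor-free tissue was analysed here.

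CD3 chains form the signaling part of the T cell receptor. T cells without CD8 include CD4-positive helper cells, regulatory T cells governed by the transcription factor Foxp3, γδ T cells with their own receptor chains, many of which secrete interleukin 17, and natural killer T cells. In droplet data a cell can also lack a *Cd8a* UMI because the transcript was not captured, so the set is defined by what was detected.

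In MYC spinal tumors, 623 members were found in MYC spinal 1, 53 in MYC spinal 2 and 91 in MYC spinal 3. In eRT, 27 were found in eRT 1, 386 in eRT 2 and 120 in eRT 3. The tumors MYC spinal 1 and eRT 2 thus held most members, and both tumors with the fewest, eRT 1 and MYC spinal 2, lay in different subtypes. The members' UMIs summed to between 47180 in MYC spinal 2 and 1377074 in MYC spinal 1, and the median member had 642 UMIs in MYC spinal 2 and between 1246 and 2766 in the others. Over all cells kept, totals ran from 3841706 to 26184224 UMIs per tumor and medians from 916 to 5211. The tables name cells by number and give no barcode, and 0 cells shared their whole profile with another cell.

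Values used by the rule are given as a description. *Cd3d* was found in 84.8% of members, *Cd3e* in 60.4% and *Cd3g* in 87.2%. Just inside the limit, 32, 35 and 35 members of MYC spinal 1, 2 and 3 and 3, 94 and 22 of eRT 1, 2 and 3 had exactly 2 CD3 UMIs. Just outside it, 46, 148, 78, 18, 100 and 20 cells of the same tumors in that order had 1. The median number of CD3 UMIs per member was highest in MYC spinal 1 (7) and lowest in MYC spinal 2 (2). Of the CD8-positive T cells, which met the same CD3 and C1q limits with at least 1 CD8 UMI, 52 of 322 in MYC spinal 1, 8 of 9 in MYC spinal 2, 21 of 71 in MYC spinal 3, 3 of 14 in eRT 1, 25 of 66 in eRT 2 and 15 of 25 in eRT 3 had a single CD8 UMI. The C1q limit kept out at most 17 cells per tumor.

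Markers that the rule did not use were then compared with the label. *Thy1*, a surface protein of T cells, was found in 743 members (57.2%) and *Lck*, the kinase that acts first after T cell receptor binding, in 661 (50.8%). *Lck* was found in 70.8% of members in MYC spinal 1 and 74.1% in eRT 1, but in 13.2% in MYC spinal 2, 30.8% in MYC spinal 3, 31.6% in eRT 2 and 35.8% in eRT 3. Constant genes of the αβ and γδ receptors (*Trac*, *Trbc1*, *Trbc2*, *Trdc*, *Tcrg-C1*, *Tcrg-C2* and *Tcrg-C4*) were not listed for any tumor. Both kinds of T cells could therefore not be told apart by receptor. MYC spinal 2 stood apart: 41 of its 53 members had a UMI of the neutrophil alarmin gene *S100a8*, against 2 of 623 in MYC spinal 1, 18 of 91 in MYC spinal 3, 2 of 27 in eRT 1, 122 of 386 in eRT 2 and 0 of 120 in eRT 3. An alternative chosen after seeing the data left out cells with a UMI of *S100a8*, *S100a9*, *Lyz2*, *Hba-a1* or *Hbb-bs*. These are genes of myeloid and red blood cells. MYC spinal 1, 2 and 3 then kept 579 of 623, 2 of 53 and 21 of 91 members. For eRT 1, 2 and 3 the numbers were 13 of 27, 151 of 386 and 57 of 120. UMIs of these genes were thus found in members of every tumor, and their source was not tested. The label of T cells rests on the fewest CD3 UMIs in MYC spinal 2. Results for eRT against MYC spinal tumors are given with and without it, and with 9 CD8-positive T cells it entered no comparison within tumors.

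Members made up a different share of each tumor. They were 42.4% of cells (95% exact binomial interval 39.9 to 45.0%) in MYC spinal 1, 0.922% (0.691 to 1.204%) in MYC spinal 2 and 1.35% (1.09 to 1.66%) in MYC spinal 3. In eRT they were 1.26% (0.832 to 1.83%) in eRT 1, 18.9% (17.2 to 20.7%) in eRT 2 and 2.99% (2.48 to 3.56%) in eRT 3. The intervals cover counting error only. Shares overlapped between subtypes, with a mean of 7.72 ± 9.73% in eRT and 14.9 ± 23.8% in MYC spinal tumors (SD, n = 3 each), and the exact two-sided permutation test over tumors gave p = 0.9, where the smallest p that 3 against 3 tumors allow is 0.1. Without MYC spinal 1 the difference turned from −7.18 to 6.58 percentage points (exact permutation p = 0.4), and without MYC spinal 2 it was −14.2.

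Members were 65.9%, 85.5% and 56.2% of T cells in MYC spinal 1, 2 and 3, and 65.9%, 85.4% and 82.8% in eRT 1, 2 and 3. The means were 78.0 ± 10.6% in eRT and 69.2 ± 14.9% in MYC spinal tumors (SD, n = 3 each), and the difference of 8.81 percentage points was within the spread (exact permutation test, p = 0.7). Without MYC spinal 2 it was 17.0, and without MYC spinal 3 it was 2.30. When cells with a UMI of *S100a8*, *S100a9*, *Lyz2*, *Hba-a1* or *Hbb-bs*, genes of myeloid and red blood cells, were left out, an alternative chosen after seeing the data, MYC spinal 3 kept 21 members and 35 CD8-positive T cells. The difference was then 32.4 percentage points over 3 eRT and 2 MYC spinal tumors (exact permutation p = 0.2, the smallest that this number of tumors allows), as MYC spinal 2 kept 3 T cells. The difference in the share of all cells was then 2.85 (exact permutation p = 0.8) over all 6 tumors. Shares among T cells were highest in the tumors with the shallowest members. Median member depths were 642, 1277.5 and 1246 UMIs in MYC spinal 2 and eRT 2 and 3. They were 1802, 2355 and 2766 UMIs in MYC spinal 1 and 3 and eRT 1. This share was not thinned, so the part of missed CD8 transcripts was not tested.

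**Figure D1:**
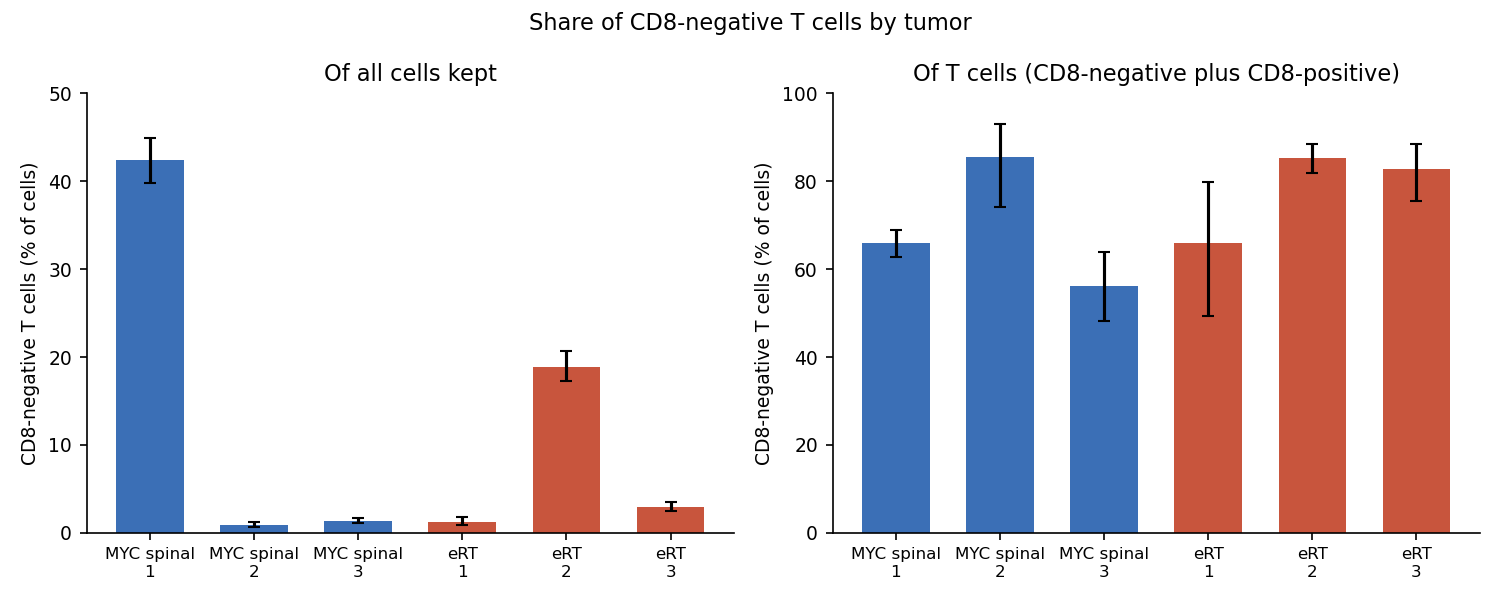
Bars give the percentage of CD8-negative T cells among all cells kept (left) and among CD8-negative plus CD8-positive T cells (right) in each tumor, with 95% exact binomial intervals for counting error. MYC spinal 1 (42.4%) and eRT 2 (18.9%) exceed the other 4 tumors on the left, whereas all 6 tumors lie between 56.2% and 85.5% on the right. Depth, which differed between tumors, was not adjusted for.

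*Cd4*, the co-receptor of helper and regulatory T cells, was detected in 152 of the 1300 members (11.7%). The shares with a *Cd4* UMI were 16.4% (102 cells) in MYC spinal 1, 7.55% (4 cells) in MYC spinal 2 and 1.10% (1 cell) in MYC spinal 3. In eRT they were 11.1% (3 cells) in eRT 1, 10.1% (39 cells) in eRT 2 and 2.5% (3 cells) in eRT 3. In CD8-positive T cells, which should lack the gene, the shares were 1.55% (5 of 322) in MYC spinal 1 and 3.03% (2 of 66) in eRT 2, with no UMI in the others, at median depths of 2056 and 1381.5 UMIs against 1802 and 1277.5 in the members of these tumors. Granulocyte-like cells, which had at least 100 UMIs per 10000 of *S100a8* and *S100a9* and no CD3 UMI, had *Cd4* in 0.219% (4 of 1829) in MYC spinal 2 at a median of 999 UMIs, and in 0.840% (2 of 238) in eRT 2 at 1072.5. The interval of the members' share in MYC spinal 1 (13.6 to 19.5%) lay above that of its CD8-positive cells (0.506 to 3.59%). In eRT 2 it (7.28 to 13.6%) overlapped that of the CD8-positive cells (0.369 to 10.5%), and the share in MYC spinal 3 rests on 1 cell. The means were 7.90 ± 4.71% in eRT and 8.34 ± 7.67% in MYC spinal tumors (SD, n = 3 each), a difference of −0.435 percentage points with exact permutation p = 1.0. Without MYC spinal 1 the difference was 3.58, without eRT 3 it was 2.27, without MYC spinal 2 it was −0.831 and without MYC spinal 3 it was −4.05. With every cell thinned to 500 UMIs in a single random draw, 15 members of MYC spinal 2 were left out. The shares were then 5.78%, 7.89% and 0% in MYC spinal 1, 2 and 3, and 7.41%, 3.89% and 0.833% in eRT 1, 2 and 3.

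*Foxp3* was detected in 59 members (4.54%), namely 33 (5.30%) in MYC spinal 1, 0 in MYC spinal 2, 2 (2.20%) in MYC spinal 3, 0 in eRT 1, 21 (5.44%) in eRT 2 and 3 (2.5%) in eRT 3. A count of 0, taken as 3 counts of the cells, allows a share of cells with a UMI, though not of cells expressing the gene, of up to 5.66% in MYC spinal 2 and 11.1% in eRT 1. The CD8-positive T cells had *Foxp3* in 5 of 322 cells in MYC spinal 1 (0.506 to 3.59%, against 3.67 to 7.36% in members) and 2 of 66 in eRT 2 (0.369 to 10.5%, against 3.40 to 8.20%), so that in eRT 2 the intervals overlapped. The mean share was 2.65 ± 2.72% in eRT and 2.50 ± 2.66% in MYC spinal tumors (SD, n = 3 each; difference 0.149, exact permutation test, p = 0.8). The difference was −1.10 without MYC spinal 2, −1.25 without eRT 2, 1.55 without MYC spinal 1 and −1.93 without cells carrying UMIs of the myeloid and red blood cell genes named above. Of the members with *Foxp3*, 10 of 33 in MYC spinal 1, 2 of 21 in eRT 2 and 2 of 3 in eRT 3 also had *Cd4*. Neither of the 2 in MYC spinal 3 did. Of all members, 102 of 623 in MYC spinal 1, 39 of 386 in eRT 2 and 3 of 120 in eRT 3 had *Cd4*. Most cells with *Foxp3* in MYC spinal 1 and eRT 2 thus showed no *Cd4* UMI at this depth. In eRT 2 their share with *Cd4* was close to that of all members.

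Transcripts of interleukin 17A, a cytokine that recruits neutrophils, were uneven across tumors, and the gene was singled out after the values had been seen. *Il17a* was found in 191 members (14.7%), of which 121 (31.3%, interval 26.7 to 36.2%) were in eRT 2 and 38 (31.7%, 23.5 to 40.8%) in eRT 3. It was found in 27 (4.33%) in MYC spinal 1 and 5 (5.49%) in MYC spinal 3, and the tables of MYC spinal 2 and eRT 1, which list genes found in at least 3 cells, do not list it. Both tumors with high shares came from Sox2-cre mice, and in the remaining eRT, from a Rosa26-cre mouse, the gene was not listed. Only that tumor, eRT 1, separates subtype from strain, and it held 27 members and had its own site and age. Subtype and strain cannot be told apart for this gene on a single tumor. In CPM (UMIs of a gene per 1000000 UMIs summed over the cells of 1 kind in a tumor), *Il17a* stood at 2898 in eRT 2, 726 in eRT 3, 44.3 in MYC spinal 1 and 22.3 in MYC spinal 3. *Il17f*, its neighbor on chromosome 1 and a cytokine of the same family, was at 140 CPM in eRT 2, 42.7 in eRT 3 and 21.2 (1 UMI) in MYC spinal 2. In CD8-positive T cells *Il17a* was found in 3 of 66 cells in eRT 2 (0.947 to 12.7%) and 5 of 25 in eRT 3 (6.83 to 40.7%, overlapping the members' interval), and in 7 of 238 granulocyte-like cells in eRT 2 (2.94%). After thinning to 500 UMIs the share of members with *Il17a* was 23.6% in eRT 2, 20.0% in eRT 3, 1.10% in MYC spinal 3 and 0.803% in MYC spinal 1.

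Cells with *Il17a* differed in their other transcripts from the remaining members of the same tumor, which is given as a description because the split was made after the values had been seen. *Cd163l1*, a scavenger receptor gene expressed by interleukin 17-producing γδ T cells, was at 813 CPM with and 99.9 CPM without *Il17a* in MYC spinal 1, 459 and 79.0 in eRT 2, and 94.6 and 24.2 in eRT 3. *Blk*, a Src-family kinase gene used by the same γδ T cells, was at 289 and 45.4, 195 and 32.0, and 394 and 137 CPM in these tumors. *Cxcr6*, a chemokine receptor of tissue T cells, was at 2427 and 847, 902 and 188, and 1135 and 638 CPM. The 3 genes were higher with *Il17a* in each of the 3 tumors. The granule gene *Nkg7* went the other way, with 105 and 1162, 19.1 and 359, and 0 and 194 CPM. None of the cells with *Il17a* had a *Cd4* UMI in MYC spinal 1 and 3 and eRT 3, and 6 of 121 had one in eRT 2. Of all members, *Cd4* was found in 102 of 623 in MYC spinal 1 and 1 of 91 in MYC spinal 3. It was found in 3 of 120 in eRT 3 and 39 of 386 in eRT 2. The missing overlap in MYC spinal 3 and eRT 3 therefore says little.

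On mm10, *Il17a* lies at chr1:20730905-20734496, *Cd4* at chr6:124864692-124888221, *Foxp3* at chrX:7573644-7595245 and *Cd163l1* at chr7:140218267-140231145 (GENCODE).

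*Ncr1* or *Klrb1c*, receptor genes of natural killer and natural killer T cells, were found in 80 members (6.15%). The shares were 8.35% (52 cells) in MYC spinal 1, 0% in MYC spinal 2 and 6.59% (6 cells) in MYC spinal 3, and 40.7% (11 of 27 cells), 2.33% (9 cells) and 1.67% (2 cells) in eRT 1, 2 and 3. The members of eRT 1 were also the deepest. Thinned to 500 UMIs, 2 of 27 (7.41%, interval 0.910 to 24.3%) had either gene in eRT 1, against 4.49% (3.01 to 6.43%) in MYC spinal 1, and these intervals overlapped. Thinned to 1000 UMIs, 8 of 27 (29.6%, 13.8 to 50.2%) had one in eRT 1, against 4.65% (3.08 to 6.69%) in MYC spinal 1. Between 48.1% (eRT 1) and 92.5% (MYC spinal 2) of members had no UMI of *Cd4*, *Foxp3*, *Il17a*, *Ncr1* or *Klrb1c*. Of the type 2 cytokine genes, *Il5* had no UMI in members, and *Il4* and *Il13* were at most at 5.48 and 6.54 CPM in any tumor. *Gata3*, a transcription factor gene of type 2 and other T cells, was found in 228 members (17.5%).

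**Figure D2:**
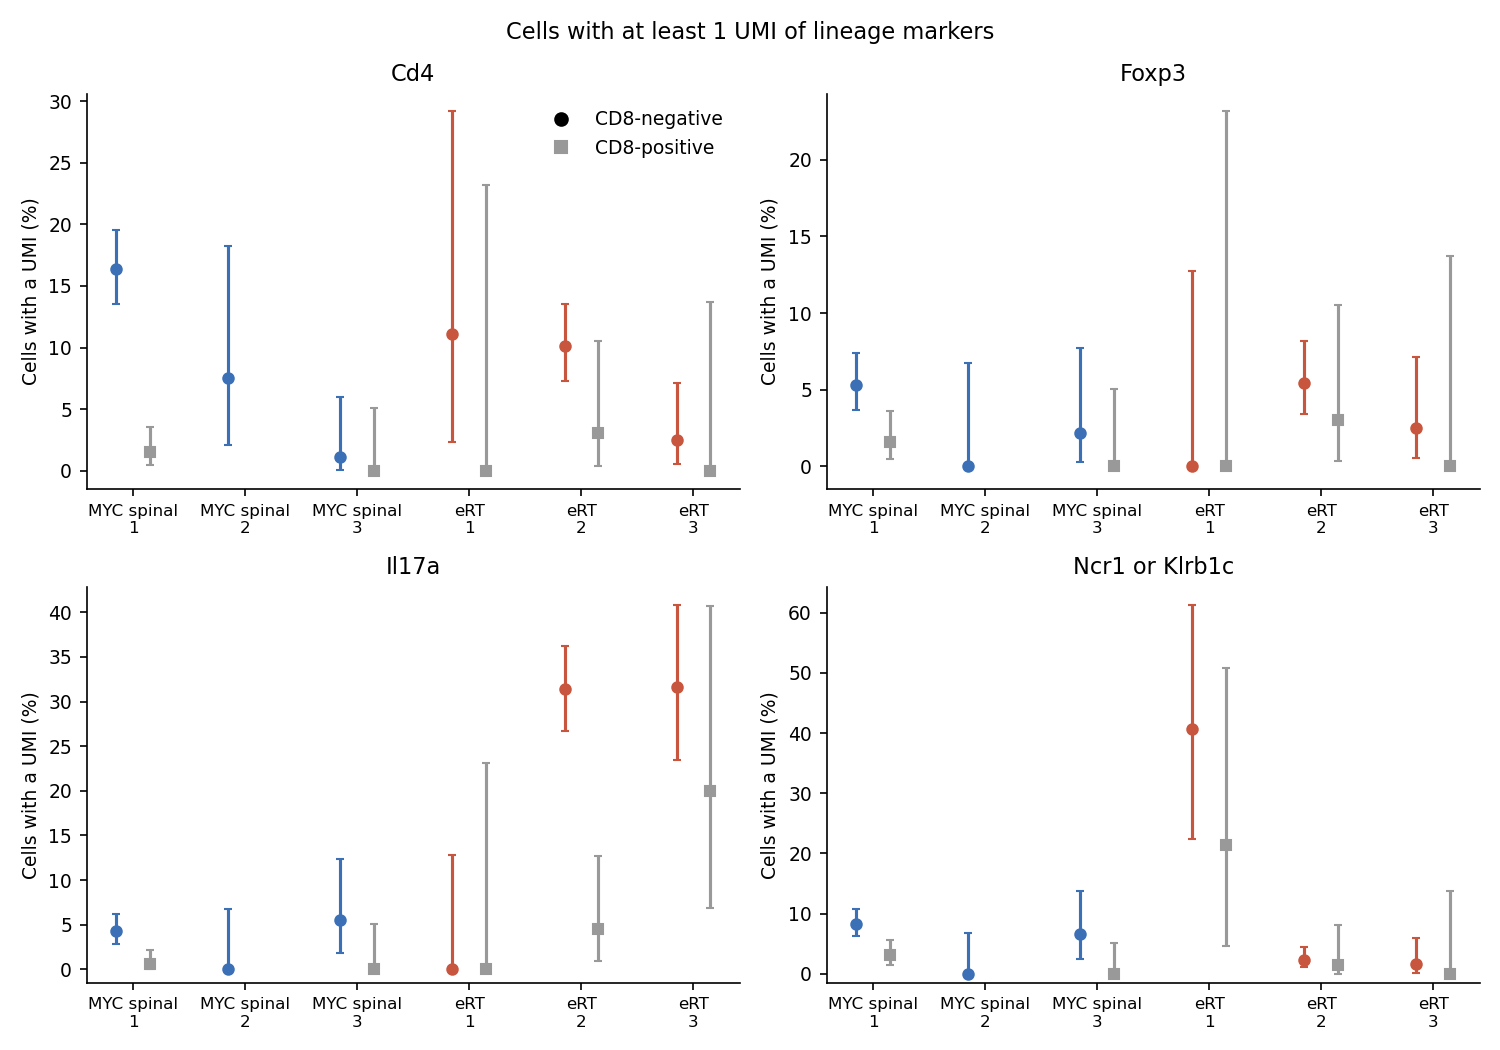
Points give the percentage of cells with at least 1 UMI of the marker named above each panel in CD8-negative (circles, blue for MYC spinal and red for eRT) and CD8-positive T cells (gray squares) of each tumor, with 95% exact binomial intervals. *Il17a* reaches 31.3% and 31.7% in the members of eRT 2 and 3 and at most 5.49% in the other tumors, while the 9 CD8-positive T cells of MYC spinal 2 are not drawn.

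To ask whether the members' expression differed between subtypes, UMIs were summed over the members of each tumor and compared with edgeR's quasi-likelihood test. No gene passed the threshold, 0 of 2938 tested (background 0%) at an adjusted p under 0.05, with 33 at an unadjusted p under 0.05. DESeq2 also called 0, with 34 at an unadjusted p under 0.05. Leaving out each tumor gave 0 to 2 genes, with 1 gene when MYC spinal 1 was left out, 2 genes for eRT 3 and 0 for MYC spinal 2. When every gene with at least 1 UMI was tested, 54 were called.

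Tumors of the same subtype also differed among themselves. *Il17a* had a log2 fold change of 5.42 ± 1.57 (SE) for eRT over MYC spinal and an adjusted p of 0.9998 in edgeR. *Tnfrsf4*, coding for the costimulatory receptor OX40, was at 504, 42.4 and 59.4 CPM in MYC spinal tumors and 166, 286 and 134 in eRT 1, 2 and 3, so the groups overlapped. *Gzmb*, coding for granzyme B, was at 396, 21.2 and 149 CPM in MYC spinal tumors and at 1793, 238 and 85.5 in eRT, with eRT 1 highest. *Ccl5*, a T cell chemokine gene, was at 1323, 1547 and 1003 CPM against 2364, 704 and 118. *Areg*, a growth factor gene of tissue-repair T cells, reached 273 CPM in eRT 2 and at most 63.6 in the others. *Il22*, whose product acts on epithelia, was at 178 CPM in MYC spinal 3, 68.5 in eRT 2 and 26.7 in eRT 3, and had no UMI in the other 3.

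The CD8-positive T cells were compared with the members within 5 tumors. In members 3 of 4 tested genes of the helper list, 7 of 9 of the regulatory list and 3 of 4 of the Th17 list were higher, and 7 of 12 of the cytotoxic list were lower, though *Gzmb* did not pass and *Gzmc*, another granzyme gene, was higher. Of 3804 genes tested, 152 were higher (background 4.0%) and 51 lower (1.34%) at an adjusted p under 0.05 in edgeR with the tumor as block, and 558 had an unadjusted p under 0.05. The genes of the rule were left out. DESeq2 called 63, of which 62 were among the 203, and the fit without C1q limit called 115. Leaving out MYC spinal 1 gave 104 calls and leaving out MYC spinal 3 gave 129.

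Among helper genes, *Cd4* was at 90.8, 3.71, 41.5, 56.2 and 16.0 CPM in the members of MYC spinal 1 and 3 and eRT 1, 2 and 3, and at 7.62 and 24.9 CPM in the CD8-positive cells of MYC spinal 1 and eRT 2, with no UMI in the other 3. Its summed level was higher in members in 5 of 5 tumors, with a log2 fold change of 2.98 ± 0.47 (SE; adjusted p = 1.48e-05, edgeR). In the 3 tumors without a UMI in CD8-positive cells, 3 counts in those cells are 14.3, 88.0 and 69.5 CPM. These limits lie above the members' levels, so the direction rests on MYC spinal 1 and eRT 2. *Tnfrsf4* was at 504, 59.4, 166, 286 and 134 CPM in members and 135, 33.5, 0, 116 and 69.5 CPM in CD8-positive cells, in the same order (1.63 ± 0.22, adjusted p = 4.16e-07, edgeR). Levels of *Tnfrsf4* overlapped between the kinds of cells across tumors, but every tumor showed the same direction. In the helper list, 3 of 4 tested genes were higher, and *Icos*, a costimulatory receptor gene, was the third (0.71, higher in 4 of 5 tumors). *Cd40lg*, the helper cell ligand of CD40, did not pass (1.16 ± 0.49, adjusted p = 0.214, edgeR).

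Regulatory T cell genes were higher for 7 of the 9 tested, with a median log2 fold change of 0.93 beside 0.01 for all genes. *Il2ra*, the high-affinity interleukin 2 receptor chain, was at 74.1, 18.6, 41.5, 105 and 69.4 CPM in members and 22.9, 4.78, 29.3, 24.9 and 23.2 in CD8-positive cells (1.66 ± 0.31, adjusted p = 0.000271, edgeR). The CD8-positive levels of MYC spinal 3 and eRT 1 and 3 lie below 3 counts, which are 14.3, 88.0 and 69.5 CPM there. *Ctla4* (0.93), *Tnfrsf18* (0.60), *Izumo1r* (1.28), *Capg* (0.76) and *Tnfrsf9* (1.16) also passed, although *Tnfrsf9* was higher in 2 of 5 tumors only and *Tnfrsf18* in 3. Several of these receptors are also carried by other activated T cells. *Foxp3* itself was not among the tested genes.

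Both tested genes of the γδ list were higher. *Cd163l1* was at 139, 215 and 48.1 CPM in the members of MYC spinal 1 and eRT 2 and 3 and at 2.54, 16.6 and 0 in their CD8-positive cells (4.89 ± 0.43, adjusted p = 4.96e-11, edgeR), and was not listed in MYC spinal 3 and eRT 1. *Blk* was higher in 4 of 5 tumors (1.50 ± 0.32, adjusted p = 0.00135, edgeR). Of the Th17 list, *Il17a*, *Tmem176a* and *Tmem176b* were higher among 4 tested. *Il17a* was at 44.3, 22.3, 2898 and 726 CPM in the members of MYC spinal 1 and 3 and eRT 2 and 3, and at 2.54, 0, 33.2 and 301 in CD8-positive cells (4.12 ± 0.39, adjusted p = 3.04e-10, edgeR; adjusted p = 0.104 in DESeq2). *Tmem176a*, an ion channel gene, was higher in 5 of 5 tumors (1.14). It overlaps *Tmem176b* (0.93) on the opposite strand of chromosome 6, which limits how far their counts can be separated. *Rora* was the 1 of 3 type 2 genes that passed (1.02).

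Cytotoxic genes were lower for 7 of 12 tested, with a median of −0.67. *Nkg7*, coding for a cytotoxic granule protein, was at 1104, 487, 1099, 237 and 128 CPM in members and 3000, 1114, 2699, 1503 and 1019 CPM in CD8-positive cells of MYC spinal 1 and 3 and eRT 1, 2 and 3, lower in 5 of 5 (−1.78 ± 0.16, adjusted p = 4.96e-11, edgeR). *Gzmk* fell from 259 to 66.1 CPM in MYC spinal 1 and from 176 to 20.7 in eRT 1 (−2.13 ± 0.24, adjusted p = 2.21e-08, edgeR). *Ccl5* (−1.49, lower in 4 of 5 tumors), *Klrc1* (−1.68) and *Klrd1* (−0.67), the latter pair coding for the inhibitory receptor NKG2A and CD94, also passed. *Gzmb* was not separated, with 396, 149, 1793, 238 and 85.5 CPM in members and 377, 253, 2201, 349 and 0 in CD8-positive cells (−0.25 ± 0.17, adjusted p = 0.546, edgeR). Not all granzymes were lower: *Gzmc* was at 97.3, 1218, 197, 227 and 240 CPM in members and 5.08, 206, 88.0, 8.30 and 0 in CD8-positive cells, higher in 5 of 5 tumors (2.98 ± 0.25, adjusted p = 1.99e-11, edgeR).

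*Dapl1*, a gene of quiescent CD8 T cells, showed the largest fall, with 13.1, 18.6, 41.5, 50.7 and 0 CPM in members and 141, 263, 323, 324 and 394 in CD8-positive cells, which did not overlap (−3.36 ± 0.24, adjusted p = 2.34e-13, edgeR). Of 10 genes of naive and recirculating T cells, *Dapl1* and the homing receptor gene *Ccr7* (−1.32) were lower. Of 13 genes of receptor signaling, *Lck* (−0.65), *Thy1* (−0.44) and *Cd27* (−1.12) were lower, each in 5 of 5 tumors, and none was called higher. Of 11 interferon response genes, *Isg15* (−0.87) and *Ifit3* (−0.93) were lower. The Th1 cytokine gene *Ifng* was lower (−1.28), the inhibitory receptor gene *Cd160* was lower (−1.47), and 5 of 9 immediate early and heat shock genes were higher, *Fos* by 0.93. No gene passed of 14 for the cell cycle and 3 for follicular helper cells. The other genes named by size of change were *Wfdc17* (1.92), *Slc7a11* (1.91), *Cfp* (1.71), *Anxa1* (1.57), *Nr4a1* (1.54) and *Cd74* (1.50) among those higher, and *Xcl1* (−1.46), *Ms4a4b* (−1.41), *Ly6c2* (−1.36) and *Gpr18* (−1.29) among those lower.

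**Figure D3:**
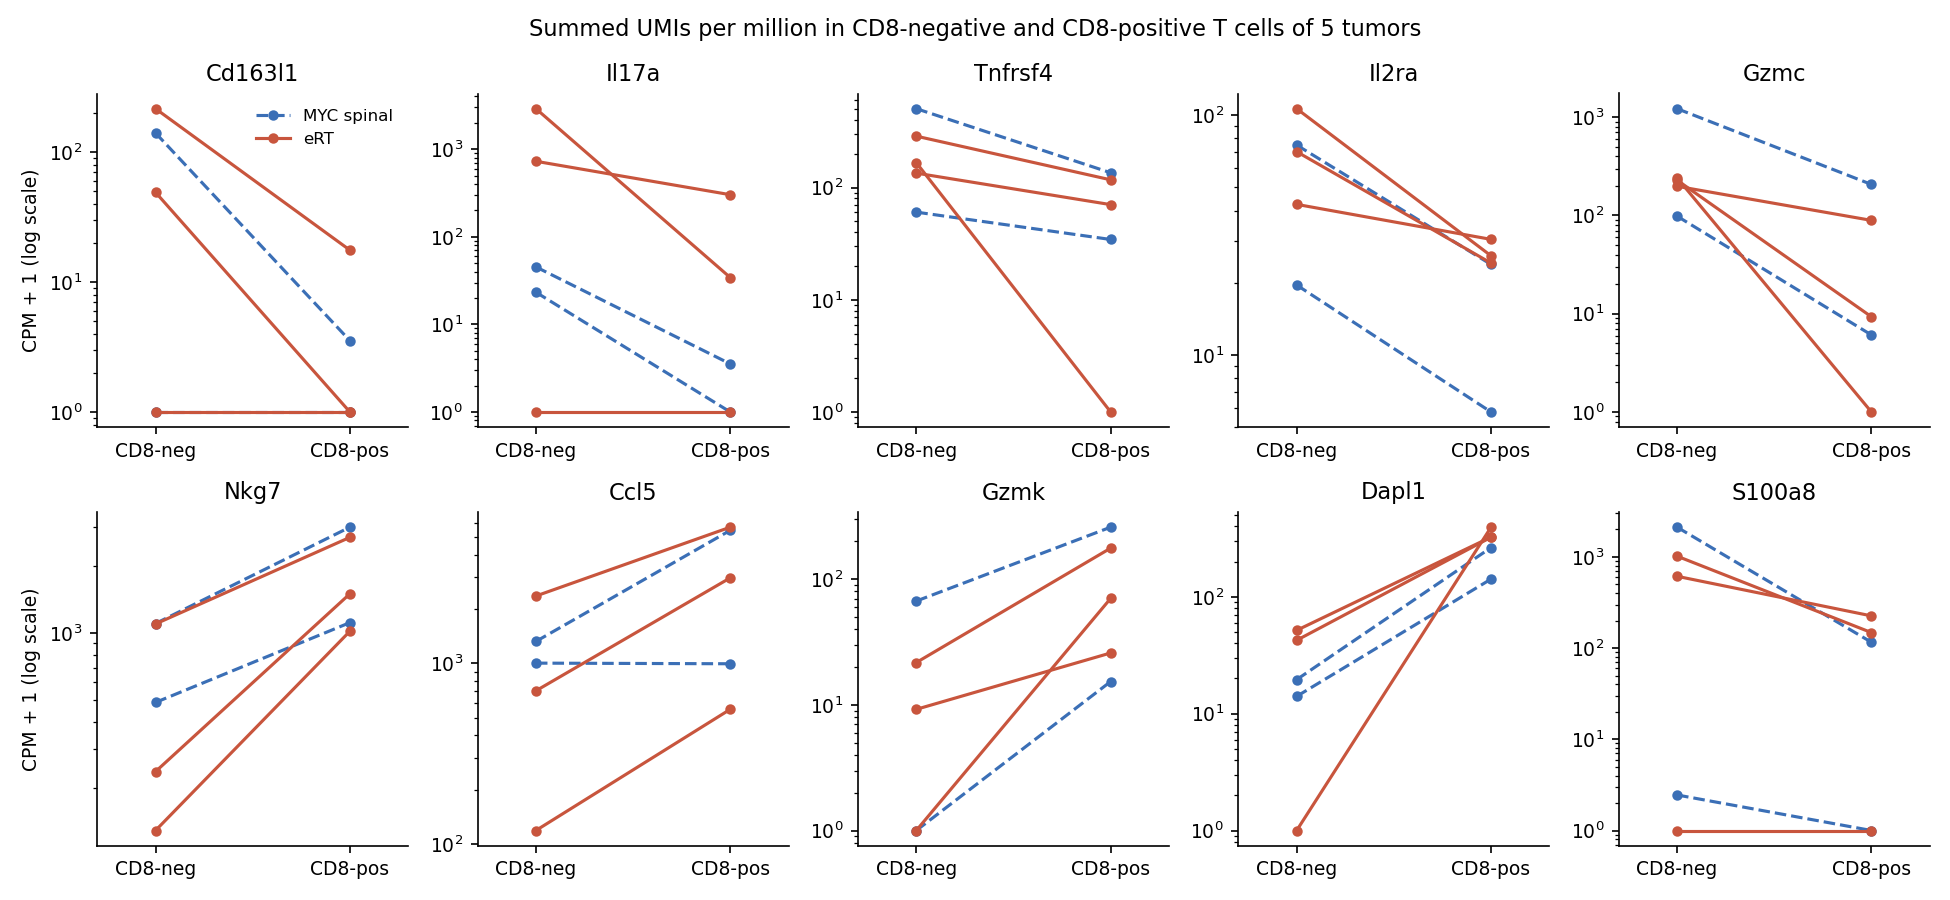
Each line joins the summed level of a gene, in CPM plus 1 on a log axis, in the CD8-negative and the CD8-positive T cells of 1 tumor (dashed blue for MYC spinal 1 and 3, red for eRT 1, 2 and 3). *Nkg7* and *Dapl1* rise toward the CD8-positive cells in all 5 tumors, *Tnfrsf4*, *Il2ra* and *Gzmc* fall in all 5, and *S100a8* falls in the 3 tumors where it was abundant.

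Markers of other cells moved with the same contrast. Of the 24 tested genes from lists of other cell types, 12 were higher in members, including all 3 neutrophil genes, all 3 erythroid genes, all 3 dendritic cell genes and 3 of 8 macrophage and monocyte genes, while none of 6 tumor and stroma genes and the 1 endothelial gene passed and no B cell or mast cell gene could be tested. The dendritic cell genes tested, 3 of 7 in the list, were *H2-Aa*, *H2-Ab1* and *Cd74*. They serve MHC class II presentation and do not mark dendritic cells alone. The 8 neutrophil genes summed to between 1.45 and 4969 CPM in the members of the 5 tumors and between 0 and 548 CPM in CD8-positive cells. The 10 macrophage and monocyte genes summed to 2494 to 5950 CPM and 1922 to 3233 CPM, the erythroid genes to 0 to 4074 and 0 to 88.0, and the dendritic genes to 321 to 9367 and 411 to 3644. *S100a8* was at 2113, 1016 and 611 CPM in the members of MYC spinal 3 and eRT 1 and 2 and at 115, 147 and 224 in their CD8-positive cells, and was at or near 0 in MYC spinal 1 and eRT 3 in both. Genes of the natural killer list, 4 of 6 higher, include *Tyrobp* (1.30) and *Fcer1g* (1.44), which neutrophils and macrophages also express. When cells with a UMI of *S100a8*, *S100a9*, *Lyz2*, *Hba-a1* or *Hbb-bs* were left out, an alternative chosen after seeing the data, 29 genes were called in 4 tumors, of which 28 were among the 203. They included *Cd163l1* (5.49), *Il17a* (3.20), *Tnfrsf4* (1.86), *Cd74* (1.52), *Tyrobp* (1.61), *Nkg7* (−1.81), *Ccl5* (−1.85) and *Dapl1* (−3.55). Other named genes kept their sign but did not pass there in edgeR, among them *Lck* (−0.51, adjusted p = 0.414), *Thy1* (−0.37, adjusted p = 0.401), *Isg15* (−0.49, adjusted p = 0.339), *Ifit3* (−0.60, adjusted p = 0.504), *Ccr7* (−1.26, adjusted p = 0.273), *Tnfrsf18* (0.89, adjusted p = 0.0853), *Tnfrsf9* (1.29, adjusted p = 0.296) and *Rora* (1.06, adjusted p = 0.0687). *Cd4*, *Il2ra*, *Ctla4*, *Gzmc*, *Gzmk* and *Cd27* could not be tested there. Nor could *Blk*, *Izumo1r*, *Ifng*, *Cd160*, *Wfdc17*, *Slc7a11*, *Cfp*, *Anxa1*, *Nr4a1* and *Gpr18*. Of the 203 genes, 121 could be tested in that fit, and the part of other cells in the remaining calls was not tested.

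Whether the difference from CD8-positive T cells itself differed between eRT and MYC spinal tumors was tested as an interaction. In edgeR 19 of 3804 genes passed (background 0.499%), 10 with a positive interaction, where members stood higher relative to CD8-positive cells in eRT than in MYC spinal tumors, and 9 with a negative one, and 151 had an unadjusted p under 0.05. DESeq2 called 0, with 24 at an unadjusted p under 0.05. Leaving out 1 tumor gave 4 (without MYC spinal 3) to 15 calls, with 7 without MYC spinal 1 and 12 without eRT 2. *Ctsk* and *Mmp9*, protease genes of osteoclasts, were among them: *Ctsk* was at 1493 CPM in the members of MYC spinal 3, 2146 in eRT 1, 16.0 in eRT 3, 1.37 in eRT 2 and 0 in MYC spinal 1, and at 1147.7 CPM in the CD8-positive cells of MYC spinal 3, 352 in those of eRT 1 and 0 in the others. The interaction turned negative for *Ctsk* (−1.58) and *Mmp9* (−1.45) without cells carrying UMIs of *S100a8*, *S100a9*, *Lyz2*, *Hba-a1* or *Hbb-bs*, where 1 gene was called. Of the 19 genes, 5 were in lists of other cell types, namely *Hbb-bs* (3.87), *S100a9* (−2.66), *S100a8* (−2.42), *Lyz2* (−1.55) and *Ly6c2* (−1.19), and the part of such cells was not tested for the remaining genes. *Slpi*, a protease inhibitor gene, was at 187 CPM in the members of MYC spinal 1 and 429 in eRT 2 and at 1.27 and 99.6 in their CD8-positive cells. None of the tested genes of the helper, regulatory, γδ, Th1 and Th17 lists passed.

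Members with a *Cd4* UMI were compared with the other members in MYC spinal 1 (102 and 521 cells) and eRT 2 (39 and 347 cells), the 2 tumors with enough cells of both. With 2 tumors and the tumor as block, the SE and p-values of this split are a weak measure of the spread between tumors. *Ccl1*, *Tnfsf8*, *Tnfrsf18* and *Tnfrsf4* were among the genes higher with *Cd4*, and *Il17a*, *Cd163l1*, *Blk* and *Ncr1* among those lower. Of 5155 genes tested, 15 were higher (background 0.291%) and 34 lower (0.66%) in edgeR with the tumor as block, and 317 had an unadjusted p under 0.05. DESeq2 called 1 gene, *Tmem176b*, and without TMM factors 27 were called. *Cd4* was left out of the calls, and median depths were 1554.5 against 1856 UMIs in MYC spinal 1 and 1490 against 1258 in eRT 2.

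With *Cd4*, the CCR8 ligand gene *Ccl1* was at 1157 CPM against 59.7 in MYC spinal 1, and at 38.2 (3 UMIs) against 26.1 in eRT 2 (3.67 ± 0.35, adjusted p = 5.37e-08, edgeR) and thus differed far more in MYC spinal 1. Neither the SE nor the adjusted p reflects this difference between tumors. *Tnfsf8*, coding for CD30 ligand, was at 305 against 103 CPM in eRT 2 (1.62 ± 0.27, adjusted p = 0.000623, edgeR). *Tff1* (2.45), *Hspa1a* (2.07), *Cd81* (1.52), *Gm8369* (1.01), *Ifitm1* (0.88), *Tnfrsf18* (0.84), *Tnfrsf4* (0.81) and *Ifi27l2a* (0.73) complete the 10 largest, and *Tnfrsf18* and *Tnfrsf4* were the 2 of 13 regulatory genes that passed. *Lag3*, coding for a receptor of MHC class II, was at 94.6 against 12.99 CPM in MYC spinal 1 and at 38.2 (3 UMIs) against 13.8 in eRT 2 (2.42 ± 0.53, adjusted p = 0.0147, edgeR). *Foxp3* did not pass (0.64 ± 0.51, adjusted p = 0.994, edgeR).

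The genes lower with *Cd4* included those of interleukin 17-producing cells. *Il17a* was at 0 against 52.8 CPM in MYC spinal 1 and 382 against 3202 in eRT 2 (−3.21 ± 0.28, adjusted p = 1.23e-08, edgeR). No UMI was seen with *Cd4* in either tumor for *Cd163l1* (at least 19.4-fold lower, set against 3 counts over both tumors), *Blk* (at least 8.16-fold) and *Ncr1* (at least 4.61-fold), and all 3 passed. *Tmem176b* (−3.11), *Klre1* (−3.37), *Serpinb1a* (−3.08), *Lmo4* (−2.96) and *Smox* (−2.72) were also among the 10 largest. Of 12 cytotoxic genes, *Gzmb* (−1.90) and *Klrd1* (−1.01) were lower, while *Nkg7* did not pass (−0.39 ± 0.21, adjusted p = 0.863, edgeR). In the γδ list 2 of 4 tested genes were lower, and in the natural killer list 3 of 6. Without cells carrying UMIs of other cell types, 43 genes were called, 33 of them among the 49.

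Members with a *Foxp3* UMI were compared in the same way in MYC spinal 1 (33 and 590 cells) and eRT 2 (21 and 365 cells). With the same 2 tumors, the SE and p-values below are again a weak measure of the spread between tumors. Of 4991 genes tested, 78 were higher (background 1.56%) and 56 lower (1.12%) in edgeR, and 536 had an unadjusted p under 0.05. DESeq2 called 29. Without TMM factors 70 were higher and 30 lower, and the median log2 fold change of all tested genes went from −0.06 to 0.05, to which the changes below are relative. Cells with *Foxp3* were deeper, with medians of 3187 against 1780.5 UMIs in MYC spinal 1 and 1792 against 1237 in eRT 2.

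The regulatory list was higher in 8 of 12 tested genes, with a median of 1.33 beside −0.06 for all genes. *Tnfrsf4* was at 1583 against 374 CPM in MYC spinal 1 and 984 against 220 in eRT 2 (1.99 ± 0.25, adjusted p = 2.11e-12, edgeR). *Ikzf2*, coding for the transcription factor Helios, was at 765 against 150 and 476 against 117 CPM (2.09 ± 0.29, adjusted p = 3.16e-10, edgeR). *Ctla4*, an inhibitory receptor gene, was at 332 against 93.6 and 492 against 216 CPM (1.39 ± 0.30, adjusted p = 0.000473, edgeR). The levels with *Foxp3* exceeded those without in both tumors for each of these. *Il2ra* (1.28), *Ikzf4* (2.26), *Tnfrsf18* (1.08), *Tnfrsf9* (1.83) and *Izumo1r* (1.41) also passed.

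*Klrg1*, a receptor gene of terminally differentiated effector and regulatory cells, was at 318 against 27.7 CPM in MYC spinal 1 and 333 against 61.5 in eRT 2 (2.89 ± 0.38, adjusted p = 2.11e-11, edgeR), and *Il1rl1*, the interleukin 33 receptor, was higher by 2.85. Of 14 cell cycle genes 5 were higher, *Mki67* by 1.83, *Ccnb2* by 1.98, *Birc5* by 1.68, *Rrm2* by 1.35 and *Stmn1* by 1.10. *Hspa1a* (3.35), *Ube2c* (2.74), *Naaa* (2.70), *Rln3* (2.68) and *Cd24a* (2.51) were among the largest changes, as were *Plbd1*, *Ptms*, *H2-DMb1* and *Cdc20*. Genes of antigen-presenting cells moved with them. Of the 7 genes in the dendritic cell list 3 could be tested, and all 3 were higher. Among them, *Cd74* was at 7551 against 2585 CPM in MYC spinal 1 and 10984 against 3814 in eRT 2 (1.40). *Cst3* was at 6036 against 685 and 3651 against 1555 (2.07). None of the 3 neutrophil genes tested passed. The part of such cells or of doublets in the result was not tested, since without the cells carrying UMIs of other cell types 1 tumor remained.

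Of the γδ list all 3 tested genes were lower with *Foxp3*, and of the cytotoxic list 3 of 11. *Il17a* was at 0 against 49.6 CPM in MYC spinal 1 and 95.2 against 3163 in eRT 2 (−5.31 ± 0.44, adjusted p = 1.06e-29, edgeR). *Cxcr6* was at 101 against 1035 CPM and 47.6 against 481 (−3.44 ± 0.36, adjusted p = 8.16e-18, edgeR). *Nkg7* was at 474 against 1180 and 63.5 against 253 (−1.56 ± 0.31, adjusted p = 6.27e-05, edgeR). No UMI with *Foxp3* was seen for *Cd163l1* (at least 12.9-fold lower), *Ccl1* (at least 12.8-fold), *Pxdc1* (at least 3.52-fold), *Rgcc* (at least 2.85-fold), *Il17re* (at least 2.70-fold), *Ifng* (at least 2.52-fold) and *Zbtb16* (at least 2.11-fold). *Serpinb1a* (−3.96), *Ly6g5b* (−4.13) and *Aqp3* (−3.91) were also among the largest, and *Tmem176b* (−3.74), *Tmem176a* (−2.54), *Tcf7* (−2.71), *Cxcr3* (−2.11) and *Thy1* (−1.36) passed.

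**Figure D4:**
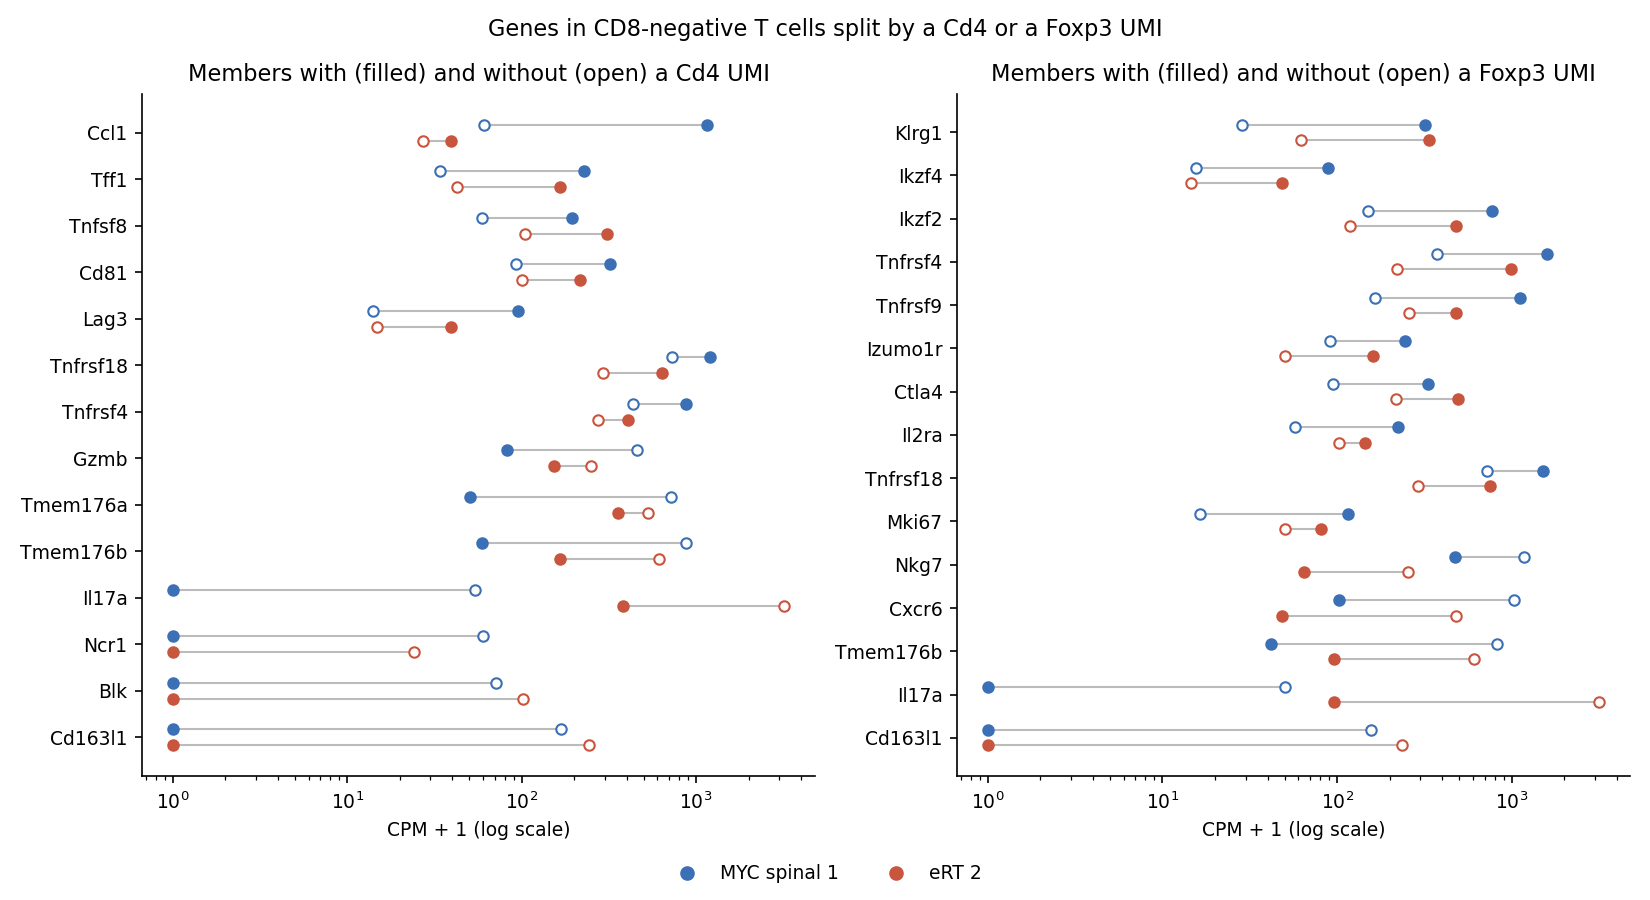
Points give levels in CPM plus 1 on a log axis in members with (filled) and without (open) a *Cd4* UMI (left) or a *Foxp3* UMI (right), in MYC spinal 1 (blue) and eRT 2 (red), with lines joining both kinds of cells of a tumor. *Cd163l1* has no UMI in members with *Cd4* or with *Foxp3*, and *Ikzf2*, *Tnfrsf4* and *Ctla4* are higher with *Foxp3* in both tumors.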

How the data were processed

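Single cells of 6 mouse tumors were sequenced with the 10x 3′ v2 chemistry. The authors aligned reads to mm10 with Cell Ranger 2.0.2 and deposited 1 table of raw UMI counts per tumor, listing genes found in at least 3 cells and cells with at least 50 genes. A gene that a table does not list was taken as 0. No column of per-sample values was left unused (0). Constant genes of the T cell receptors were not listed for any tumor and could not be analysed.

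UMIs were summed per tumor and kind of cell, for kinds with at least 10 cells, and compared with edgeR 4.0.16 (quasi-likelihood test, TMM, filterByExpr, Benjamini-Hochberg adjusted p under 0.05, R 4.3.3), with the tumor as block within tumors. DESeq2 1.42.0 was an alternative, and other filters, scalings, limits of the cell rule and left-out tumors are described under the dependence on processing. The within-tumor sums of 1 tumor come from the same library, and the tumors are the replicates. Shares were compared with exact two-sided permutation tests over tumors (scipy 1.17.1). A floor of 3 counts stands for a count of 0. Intervals are exact (95%) and cover counting error only. Thinning used a single random draw per cell and depth, and the intervals of thinned shares do not cover the variation between draws. The Scrublet doublet caller, run in scanpy 1.11.5, marked 21 of 22163 cells, against 843 from an assumed rate of 0.8% per 1000 cells. How well it found doublets was not tested, and no doublets were removed from the main results. Leaving out the 843 cells with the highest scores was an alternative. The edgeR script was tested on simulated data.

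The members and lists were chosen with earlier results of these data known. Named were the genes of the lists and, per direction, the 10 largest changes among called genes with the same direction in every tumor and an average log2 CPM of at least 5. Genes named outside this rule (*Il17a* with its split, *Lag3*, *Areg* and *Il22* among them) were chosen from the lists or after their values were seen.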

Additional observations from a re-analysis of the deposited data

Results flagged for a closer look

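The difference between CD8-negative and CD8-positive T cells was not the same in eRT and MYC spinal tumors for 11 named genes, by the interaction term in edgeR. The interaction was positive, with members higher relative to CD8-positive cells in eRT than in MYC spinal tumors, for *Smox* (7.54, adjusted p = 0.0284), a polyamine oxidase gene without UMIs in the CD8-positive cells of eRT, so that its value depends on the prior count. It was also positive for *Mmp9* (3.11, adjusted p = 0.0135), *Gem* (3.08, adjusted p = 0.0385), *Gzma* (3.004, adjusted p = 0.0284) and *Ctsk* (2.31, adjusted p = 0.00435). It was negative, with members lower relative to CD8-positive cells in eRT than in MYC spinal tumors, for *Slpi* (−4.83, adjusted p = 0.00283), *Ifit3* (−2.07, adjusted p = 0.0120), *Zbp1* (−1.56, adjusted p = 0.0284), *Lyz2* (−1.55, adjusted p = 0.0173), *Ly6c2* (−1.19, adjusted p = 0.0219) and *Ly6a* (−1.12, adjusted p = 0.0313).

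*Gzma*, coding for granzyme A, was at 46.5 and 74.3 CPM in the members of MYC spinal 1 and 3 and 104, 129 and 0 in those of eRT 1, 2 and 3, beside 54.6, 115, 58.7, 8.30 and 0 in CD8-positive cells. In eRT 1, 2 and 3 the CD8-positive levels of *Gzma* lie below 3 counts, which are 88.0, 24.9 and 69.5 CPM there. Its interaction therefore rests on very few UMIs in the CD8-positive cells of eRT. *Ifit3*, an interferon response gene, was at 322, 22.3, 72.6, 27.4 and 10.7 CPM in members and 437, 4.78, 235, 174 and 92.7 in CD8-positive cells. DESeq2 called none of these genes, and *Lyz2* is a marker of macrophages and neutrophils whose part in the result was not tested.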

How the results depend on the processing

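Between eRT and MYC spinal tumors, no paired analysis was possible because replicate numbers only name tumors of different mice, whereas comparisons within tumors had the tumor as block. For eRT against MYC spinal, testing every gene with a UMI gave 54 calls, and leaving out 1 tumor 0 to 2. For CD8-negative against CD8-positive T cells, DESeq2 gave 63, no C1q limit 115, no cells with UMIs of other cell types 29, no block by tumor 0 (60 at an unadjusted p under 0.05), and leaving out 1 tumor 104 (MYC spinal 1) to 206. For the interaction, DESeq2, no C1q limit and removal of the highest Scrublet scores gave 0 each (24, 140 and 136 at an unadjusted p under 0.05), at least 1 CD3 UMI 6, at least 3 CD3 UMIs 2, no cells with UMIs of other cell types 1, and leaving out 1 tumor 4 (MYC spinal 3) to 15. Its value reversed for *Mmp9* (−1.45) and *Ctsk* (−1.58) without those cells, and for *S100a9* with DESeq2 (1.34), while leaving out 1 tumor gave −3.41 to 5.75. For *Cd4*, DESeq2 gave 1, no TMM factors 27, RLE factors 22, at least 1 CD3 UMI 90 and no block 0 (83 at an unadjusted p under 0.05), and *Apoe* reversed without C1q limit (0.64). For *Foxp3*, DESeq2 gave 29, every gene 78, at least 1 CD3 UMI 35, at least 3 CD3 UMIs 58, C1q under 5 17 and no block 0 (179 at an unadjusted p under 0.05). Leaving out a tumor leaves 1 tumor and no test in both.

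Leaving out 1 tumor moved the difference in the share of all cells from −14.2 to 6.58, of *Cd4* from −4.05 to 3.58 and of *Foxp3* from −1.25 to 1.55 percentage points. The share with *Cd4* reversed when cells below 500 genes or above 10% mitochondrial UMIs were dropped (2.00), C1q under 5 (0.847) and thinning to 1000 UMIs (0.364). That with *Foxp3* reversed with at least 1 CD3 UMI (−0.407), at least 3 (−0.0356), without the highest Scrublet scores (−0.00217) and thinned to 500 UMIs (−0.329). Without cells carrying UMIs of other cell types, the share of all cells (2.85) and that with *Foxp3* (−1.93) reversed, that of T cells was 32.4 and that with *Cd4* −1.84. The causes were not tested. The alternative without cells carrying UMIs of other cell types was chosen after seeing the data. Depth limits MYC spinal 2 most, where 3 counts are 63.6 CPM.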
